A study of Mus musculus with 4 samples.

Results

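Levels of 35 listed chaperone and heat shock genes were followed in B cell lymphomas of the mouse spleen. The list was taken as given and its gene symbols were matched to the gene identifiers of the expression table through the GENCODE annotation of the mouse genome (GRCm38). Of the 35 genes, 34 were found among the 34866 genes of the table, and the level of Cct6a was not analysed here. The label of the list names cytosolic chaperones, but Hspa9, Hspd1, Hspe1 and Trap1 code for proteins of the mitochondrial matrix, and they are described as a group of their own.

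The cells came from 2 tumor-bearing λ-MYC Tom+/ki mice, numbered tumor #1 and tumor #2. Every group carried the same alleles: the λ-MYC transgene, in which human MYC is driven by immunoglobulin λ regulatory sequences in the B lineage, a Cre allele, and a tdTomato reporter at Rosa26 that Cre switches on for good. Spleen cells of each mouse were sorted into B220+ IgM+ Tom+ cells, in which the reporter had been switched on, and B220+ IgM+ Tom- cells, in which it had not, and polyadenylated RNA of each fraction was sequenced. There were thus 4 libraries, 2 of each fraction and 2 of each tumor, no library of cells without the transgene, and no age for these animals in the sources used here. The table held TPM values, in which transcripts are scaled by their length and to the same total in each library so that genes can be compared with each other, and its sequencing depth is unknown. In what follows, values of a gene are given for the Tom- and then the Tom+ library of tumor #1, and then in the same order for tumor #2. In bulk RNA of this kind, fewer cells of a type and less RNA per cell cannot be told apart.

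Chaperones bind unfolded proteins and release them again in cycles driven by ATP. Newly made chains are met by HSP70 and its J-domain partners, and clients such as kinases and steroid receptors are passed on to HSP90 with the help of cochaperones, while actin, tubulin and WD-repeat proteins fold inside the TRiC (CCT) chaperonin, a barrel of TCP1 and CCT subunits. Under heat or proteotoxic stress the transcription factor HSF1 binds heat shock elements, inverted repeats of nGAAn units, and switches on the inducible members, of which Hspa1a and Hspa1b are the best known. MYC-driven cells make protein at a high rate, and the constitutive members are abundant in most dividing cells.

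The promoter windows below are shown because they hold a heat shock element or belong to the inducible genes whose near absence is described next. Windows of 300 bases, from 250 bases before to 50 bases after each annotated start, were taken from RefSeq (GRCm38.p6). They were found for 29 of the 35 genes, Cct6a included. No window was at hand for Hspa8, Hsp90aa1, Hsp90ab1, Hspa9, Hsf1 and Cct4, so the promoters of these genes were not searched. A heat shock element of 3 units, written GAA, any 2 bases, TTC, any 2 bases, GAA and searched on both strands, stood in windows of 4 of the 29 genes (13.8%) and of 179 of 27025 genes with a window (0.662%). These 4 were Hsph1, Dnajb6, Hspd1 and Hspe1. The shorter element of 2 units, GAANNTTC, which every 3-unit match contains, stood in 11 of 29 (37.9%) beside 9.04% of all genes: in addition to those 4, in Hspa1a, Hspa1b, Dnaja1, Hspb1, Bag3, Fkbp4 and Cct2. The E-box CACGTG, the letters that MYC is known to bind, stood in 4 of 29 (13.8%, Fkbp5, Hsph1, Hspd1 and Hsf2) beside 8.09% of all genes. A match describes the letters and says nothing of binding in these cells. In each of the following windows the bases matched by a heat shock element are in capitals, and the strand is that of the gene.
Hspe1, chr1:55087898-55088197, plus strand: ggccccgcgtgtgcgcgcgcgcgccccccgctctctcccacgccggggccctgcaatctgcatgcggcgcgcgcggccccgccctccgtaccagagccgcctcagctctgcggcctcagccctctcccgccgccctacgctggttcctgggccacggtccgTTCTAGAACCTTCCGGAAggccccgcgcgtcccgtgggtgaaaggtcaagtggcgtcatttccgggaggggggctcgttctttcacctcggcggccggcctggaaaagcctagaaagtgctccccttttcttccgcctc
Hsph1, chr5:149636266-149636565, minus strand: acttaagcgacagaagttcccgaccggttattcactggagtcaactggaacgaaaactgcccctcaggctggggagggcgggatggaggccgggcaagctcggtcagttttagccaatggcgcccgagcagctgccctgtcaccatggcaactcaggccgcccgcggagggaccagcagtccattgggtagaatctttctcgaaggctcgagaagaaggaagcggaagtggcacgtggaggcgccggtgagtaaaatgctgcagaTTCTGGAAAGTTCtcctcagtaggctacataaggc
Dnajb6, chr5:29735729-29736028, plus strand: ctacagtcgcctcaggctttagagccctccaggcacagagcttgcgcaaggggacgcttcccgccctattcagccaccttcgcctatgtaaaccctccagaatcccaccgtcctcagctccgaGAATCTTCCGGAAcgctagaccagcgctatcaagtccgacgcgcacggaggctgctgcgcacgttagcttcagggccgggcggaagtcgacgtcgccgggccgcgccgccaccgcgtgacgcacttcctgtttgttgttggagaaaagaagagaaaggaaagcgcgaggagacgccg
Hspa1b, chr17:34959189-34959488, minus strand: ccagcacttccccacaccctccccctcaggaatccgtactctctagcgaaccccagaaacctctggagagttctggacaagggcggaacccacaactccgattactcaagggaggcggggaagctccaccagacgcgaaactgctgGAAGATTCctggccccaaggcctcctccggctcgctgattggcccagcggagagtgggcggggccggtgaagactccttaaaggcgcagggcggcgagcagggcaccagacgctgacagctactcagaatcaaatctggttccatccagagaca
The capitals of Hspe1 hold 2 overlapping matches to the 3-unit element. Hspe1 and Hspd1 are neighbours transcribed away from each other, and a window of Hspd1 (chr1:55087883-55088182, minus strand) shares 285 bases with that of Hspe1 and so reads the same element from the other strand. The Hspa1a window (chr17:34972107-34972406, minus strand) is identical to that of Hspa1b at 296 of 300 bases, so that these genes hold the same 2-unit element and are near copies of each other in their promoters.

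**Figure D1:**
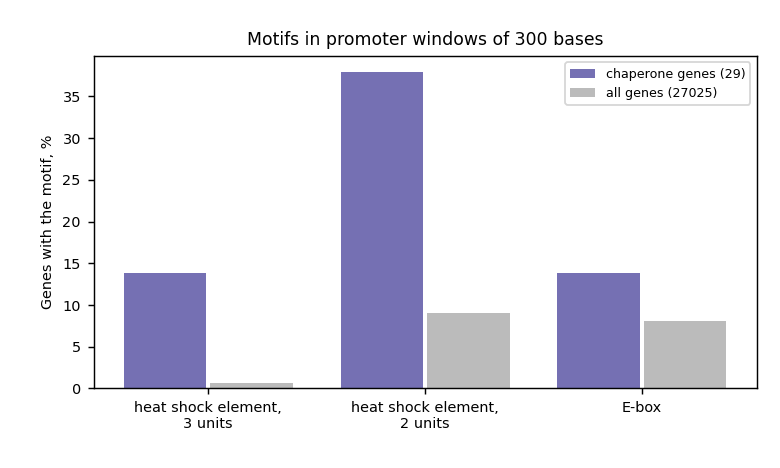
Share of genes (vertical axis, %) whose 300-base promoter window holds each motif, for the 29 chaperone genes with a window and for all 27025 genes with one. The 3-unit heat shock element stands in 13.8% of the chaperone genes and 0.662% of all genes, and the E-box in 13.8% and 8.09%.

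Levels spanned a wide range (the plot of levels by library shows every gene). Hspa8 (ENSMUSG00000015656, chr9:40800984-40810087), the constitutive cytosolic HSP70, was the most abundant of the 34 genes in all 4 libraries, at 3488, 3372, 1936 and 1788 TPM. It ranked between 15 and 39 among the 21850 protein-coding genes of the table. The inducible HSP70 genes lay at the other end: Hspa1a (ENSMUSG00000091971, chr17:34969190-34972156) stood at 0.175, 0.323, 0.0694 and 0.0449 TPM and its neighbour Hspa1b (ENSMUSG00000090877, chr17:34956436-34959238) at 0.123, 0.427, 0.147 and 0.384 TPM. Both were thus below 1 TPM in every library, and since these genes are known to be near identical in their coding parts, the split of reads between them is uncertain.

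The HSP90 pair was also abundant. Hsp90aa1, the HSP90 isoform that stress can raise further, stood at 2019, 2188, 1476 and 1550 TPM, and the constitutive Hsp90ab1 at 1858, 1583, 1006 and 1099 TPM. The ratio of Hsp90aa1 to Hsp90ab1 ran from 1.09 to 1.47, with Hsp90aa1 above Hsp90ab1 in each of the 4 libraries. Together with Hspa8, this pair made up 47.6% to 55.4% of the summed level of the 34 genes.

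HSP90 cochaperones were each well below both HSP90 genes. Fkbp4, an immunophilin of steroid receptor complexes, stood at 165, 158, 89.6 and 69.9 TPM. Ptges3 (p23), which holds HSP90 in its closed state, stood at 124, 132, 115 and 128 TPM. Fkbp4 was thus above Ptges3 in tumor #1 and below it in tumor #2. Ahsa1, which speeds the ATPase of HSP90, had 123, 118, 94.1 and 105 TPM. Stip1 (HOP), the bridge between HSP70 and HSP90, had 93.3, 88.7, 67.7 and 56.9 TPM. Cdc37, which brings kinases to HSP90, had 74.6, 75.8, 53.4 and 49.1 TPM. These 3 were each higher in both libraries of tumor #1. The lowest cochaperone was Fkbp5, an immunophilin that glucocorticoids induce, at 37.2, 30.7, 27.0 and 14.5 TPM.

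Among the other genes of the HSP70 and HSP110 group, the exchange factor Hspa4 had 182, 207, 172 and 208 TPM. The ribosome-associated Hspa14 had 67.0, 74.7, 71.7 and 68.7 TPM, and Hsph1 (HSP110) had 37.4, 40.3, 42.4 and 75.6 TPM. Gm45902 overlaps Hspa14 on the same strand and stayed between 1.79 and 2.75 TPM. Hspa4 and Hspa14 varied little between libraries, whereas Hsph1 was highest in the Tom+ library of tumor #2.

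J-domain proteins load clients onto HSP70 and stimulate its ATPase. Dnaja2 was the most abundant of them, at 123, 122, 110 and 87.7 TPM. Dnaja1 followed at 93.8, 106, 82.1 and 62.3 TPM. Dnajb6, which holds back aggregation, had 52.1, 66.6, 68.8 and 59.0 TPM. The remaining genes of the group were lower. Dnajb1, the classical HSP40, had 9.61, 10.9, 7.74 and 7.45 TPM. Dnajb4 had 3.14, 7.29, 9.56 and 17.7 TPM and so spread more widely than any other J-domain gene of the list. The HSP70 cochaperone Bag3, an HSF1 target that links HSP70 to autophagy, had 1.01, 0.792, 0.410 and 0.716 TPM. The small heat shock protein Hspb1 (HSP27), which holds unfolded chains without ATP, was measured at 1.15 and 1.66 TPM in tumor #1 and was listed at 0 in both libraries of tumor #2.

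The TRiC genes did not stand at one level although their subunits occupy the same ring. Cct7 led with 1575, 1575, 1170 and 1232 TPM, followed by Cct8 with 634, 672, 535 and 555 TPM. A middle group came after them. Cct2 had 455, 476, 331 and 314 TPM. Cct3 had 433, 470, 424 and 449 TPM. Tcp1 had 410, 394, 329 and 326 TPM. The lowest were Cct5, with 272, 284, 223 and 209 TPM, and Cct4, with 193, 203, 150 and 116 TPM. Cct7 lay 3.54 to 3.85 times above the median of the other 6 genes, and the highest TRiC gene exceeded the lowest by 7.74 to 10.6 times. Mrpl18 and Acat3 overlap Tcp1 on the opposite strand, and Usp16 overlaps Cct8 and Pradc1 overlaps Cct7 in the same way. Outside TRiC, so do Smu1 with Dnaja1, Dnase1 with Trap1, and Hspd1 with Hspe1. Whether the counting used strand is not given in the sources used here, so that reads from such partners may not be separated.

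Mitochondrial members were led by Hspd1 (HSP60, the matrix chaperonin) at 325, 332, 231 and 242 TPM. Its lid Hspe1 (HSP10) had 187, 209, 152 and 166 TPM, a ratio to Hspd1 between 0.577 and 0.687. The matrix HSP70 Hspa9 had 180, 168, 158 and 164 TPM and Trap1, the matrix HSP90, had 62.9, 64.8, 64.5 and 69.7 TPM. The transcription factors of the family were low: Hsf1 stood at 23.1, 17.3, 23.1 and 23.3 TPM and Hsf2 at 2.93, 2.76, 4.51 and 2.01 TPM.

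**Figure D2:**
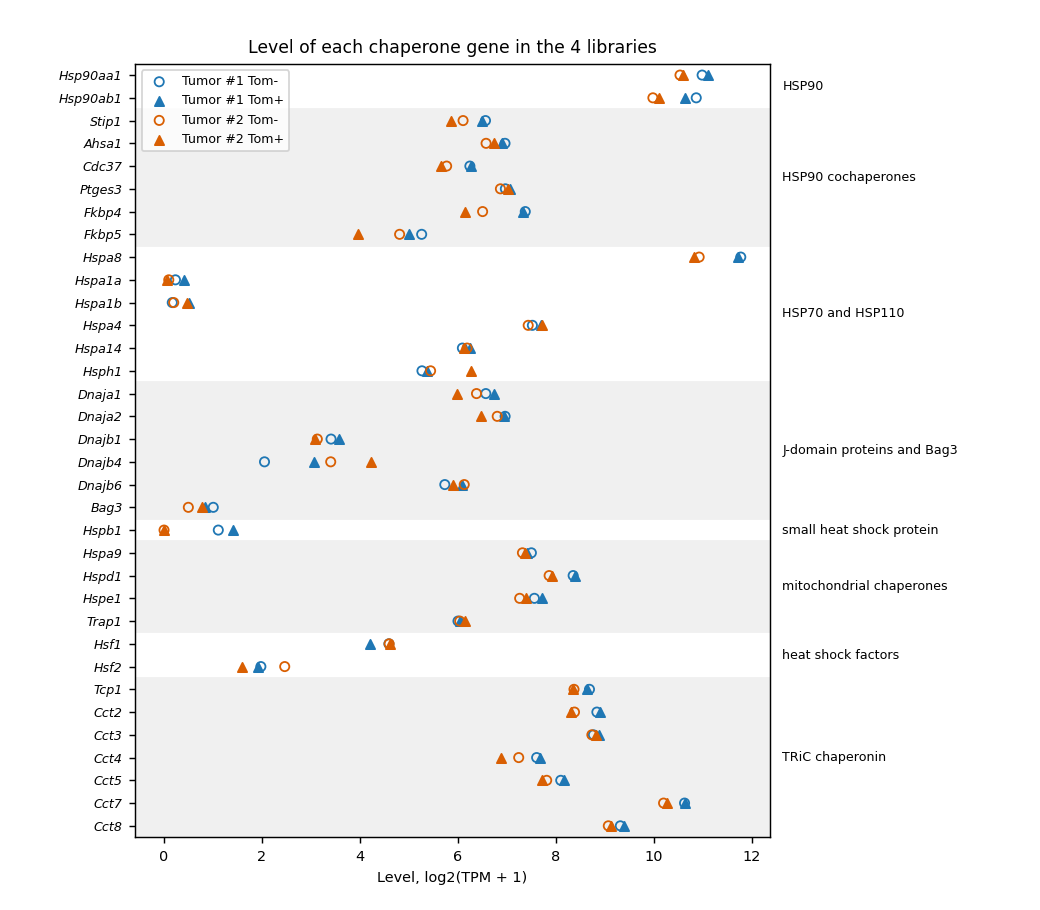
Level of each of the 34 genes (rows, grouped by role) on a log2(TPM + 1) axis. Circles are Tom- and triangles Tom+ libraries, blue is tumor #1 and orange tumor #2, each symbol being 1 library. Hspa8 lies at the right end and Hspa1a and Hspa1b near 0 in all 4 libraries.

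Some of these levels may depend on how reads were divided between a gene and its copies. Pseudogene transcripts matching a listed gene at 90% identity or more over 80% or more of their length numbered 41, for 12 genes. The most abundant was Gm47750, a pseudogene of 198 bases (chr12:26150316-26150513) with 98.8% identity to Hspd1, listed at 2863, 3401, 2116 and 1904 TPM. In TPM that is 7.88 to 10.3 times the level of Hspd1 itself. TPM is scaled by transcript length, so this is not a ratio of reads, and a short transcript reaches a high TPM with few reads. Gm48789, of 129 bases and 90.7% identity to Fkbp5, was listed at 590, 870, 480 and 745 TPM, far above Fkbp5 on this scale. Ptges3-ps, identical to Ptges3 over its length, stood at 147, 131, 91.7 and 94.3 TPM, and Gm15542 (99.4% identity to Dnaja1) at 64.0, 60.5, 36.1 and 35.5 TPM. How many reads listed under these pseudogenes came from the parent genes was not tested.

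The first comparison, which the study was built for, set Tom+ against Tom- cells within each tumor. No listed gene passed the test in either direction, and the levels of most were close in the fractions. Of the 31 genes that reached 1 TPM in at least 2 libraries, 0 passed an adjusted p of 0.05 (limma, tumor as a block, adjusted over 11339 genes), as did 0% of all genes tested. At an unadjusted p under 0.05 there was 1 of 31, beside 530 of all genes (4.67%, of which 2.04% higher and 2.64% lower in Tom+ cells). Hspa1a, Hspa1b and Bag3 were below the filter and were not tested. Fitted differences are given below as Tom+ minus Tom- on the log2(TPM + 1) scale, which understates differences of low genes.

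That gene was Dnajb4, a J-domain partner of HSP70. Its Tom+ library was above the Tom- library in tumor #1 (7.29 against 3.14 TPM) and in tumor #2 (17.7 against 9.56 TPM). The difference was 1.00 in tumor #1 and 0.83 in tumor #2, fitted at 0.91 ± 0.19 (SE) with a limma p of 0.0155 before and 0.936 after adjustment. The levels of the fractions still overlapped across tumors, since the Tom- library of tumor #2 was higher than the Tom+ library of tumor #1.

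Next in size came Fkbp5 at -0.56 ± 0.22 (SE), Hsf2 at -0.47 ± 0.31 and Hsph1 at 0.46 ± 0.24, each with an adjusted p of 0.936 by limma. All 3 pointed the same way in both tumors, but each difference lay mostly in tumor #2: -0.27 and -0.85 for Fkbp5, -0.07 and -0.87 for Hsf2, and 0.11 and 0.82 for Hsph1. With the TPM of Gm48789 added to that of Fkbp5, the sign for Fkbp5 turned, to 0.55. This alternative was chosen after seeing the data (limma p of 0.0135 before and 0.936 after adjustment). Gm48789 made up 94.1% to 98.1% of the sum in each library, so 0.55 is mostly the difference of the pseudogene. Hspa4 differed by 0.18 and 0.28, fitted at 0.23 ± 0.12 (SE).

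Over the 31 tested genes, 11 (35.5%) were higher in Tom+ cells of both tumors and 7 (22.6%) lower in both, while the other 13 pointed in opposite ways or were level in 1 tumor. Among all tested genes these shares were 21.6% and 29.5%. For protein-coding genes with a mean of 50 TPM or more, a background added after seeing the data, they were 17.2% and 34.2%, and of the 24 listed genes at that level 9 were higher and 5 lower in both tumors. The median difference of the 31 genes was 0.038, beside -0.033 for all tested genes, and it was 0.061 in tumor #1 and 0 in tumor #2. By role, the HSP90 cochaperones had 1 gene higher and 3 lower in both tumors, TRiC had 3 higher and 1 lower, and the mitochondrial group had 3 higher (Hspd1, Hspe1 and Trap1) and 0 lower. Abundant genes differed little: Hspa8 by -0.08 ± 0.11 (SE), Hsp90aa1 by 0.09 ± 0.11 and Cct7 by 0.04 ± 0.11. Differences for the TRiC genes ran from -0.15 for Cct4 to 0.10 for Cct3, both within 1 SE of 0.

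**Figure D3:**
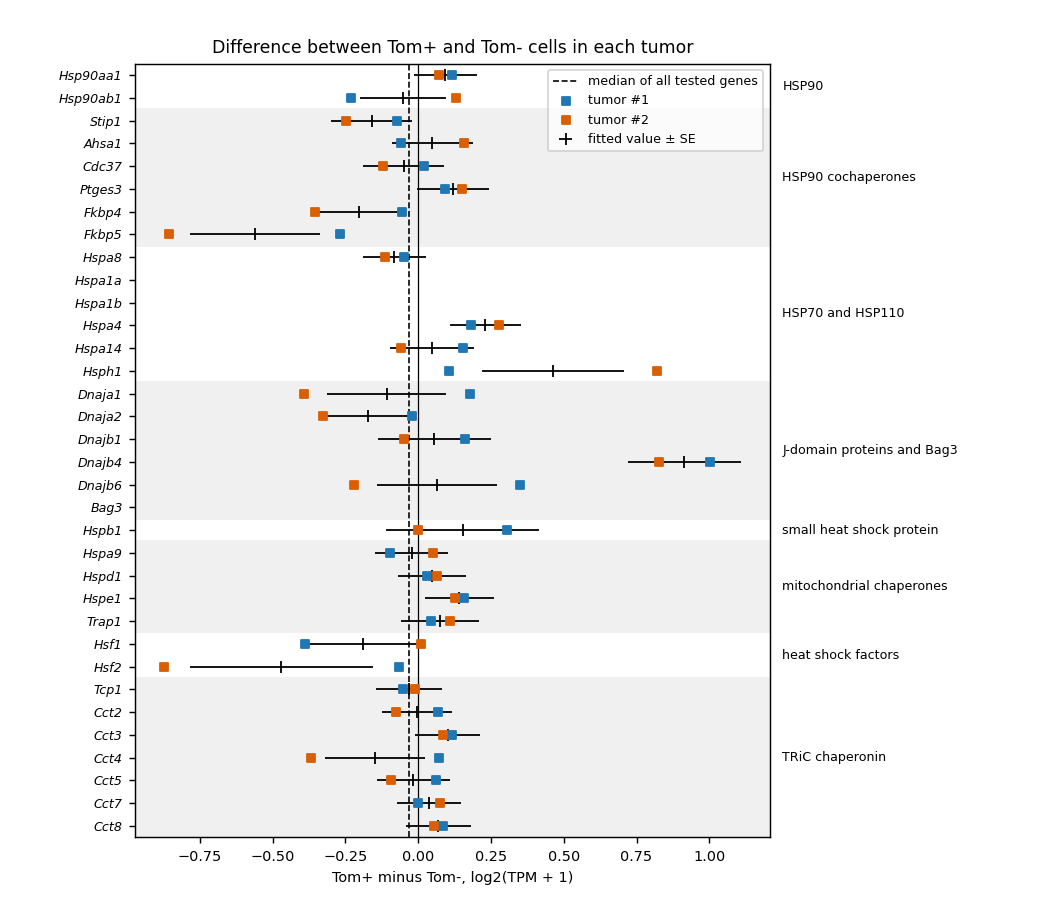
Tom+ minus Tom- on the log2(TPM + 1) scale for the 31 tested genes, with blue squares for tumor #1, orange squares for tumor #2 and black ticks with bars for the fitted value ± SE. The dashed line is the median of all tested genes (-0.033), and Dnajb4 is the one gene whose squares both lie beyond 0.8.

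Immediate-early genes, which respond to handling and to stimulation of the cells, were read beside these values. Their summed level was 186 TPM (Tom-) and 322 TPM (Tom+) for tumor #1 and 384 and 355 TPM for tumor #2. Of the 21 tested, 1 had an unadjusted p under 0.05, and their median difference was 0.29 in tumor #1 and -0.25 in tumor #2. Fos stood at 16.4, 79.2, 5.59 and 3.19 TPM. Their part in the chaperone differences was not tested.

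The second comparison used the tumor term of the same fit and set tumor #2 against tumor #1. Each tumor is 1 mouse, so the test says nothing of other mice. It sets the difference between these mice against how far that difference varied between Tom- and Tom+ cells, moderated across genes. The chaperone genes lay mostly lower in tumor #2 in both fractions, but none passed the adjusted threshold. Their levels summed to 13305 and 13253 TPM in the libraries of tumor #1 but to 9224 and 9316 TPM in those of tumor #2, or 1.33% and 1.33% against 0.922% and 0.932% of all transcripts. The mean of tumor #1 was 1.43 times that of tumor #2.

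With an adjusted p under 0.05 there were 0 of 31 listed genes by limma, beside 491 of all 11339 tested genes (4.33%, or 3.37% higher and 0.961% lower in tumor #2). At an unadjusted p under 0.05, 12 listed genes were lower and 1 was higher in tumor #2, beside 36.7% of all genes, 11.0% lower and 25.7% higher. Among the 31, both libraries of tumor #2 were below both of tumor #1 for 21 genes (67.7%), above for 3 and overlapping for 7. Hspb1, listed at 0 in tumor #2, passed the filter only through tumor #1 and could lie in no other direction: without it, 20 of 30 genes (66.7%) were below and 11 were lower at an unadjusted p under 0.05. For all tested genes these shares were 23.7% below and 44.8% above. The number of listed genes past the adjusted threshold depended on the fit: without Hspb1 it was 6 with tumor as the only term, and between 0 and 3 under the other alternatives. So did the number of all genes called, which was 2231 with tumor as the only term, 34 with a mean of at least 5 TPM, and 1 under quantile normalization and with a pseudocount of 0.1. Abundant genes as a whole leaned the other way from all genes, so a background matched on level was added after seeing the data: among protein-coding genes with a mean of 50 TPM or more, 40.0% were below and 32.0% above in this way, and of the 24 listed genes at that level 18 were below and 0 above.

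The median difference, tumor #2 minus tumor #1, was -0.31 on the log2(TPM + 1) scale for the 31 genes and 0.20 for all tested genes, and 28 of the 31 lay below the latter. In Tom- cells alone it was -0.29 and in Tom+ cells alone -0.35. Relative to the median of all genes, the listed genes stood at -0.52, and under other scalings of the libraries between -0.23 and -0.55. Among the abundant protein-coding genes the median was -0.07, and among the 24 listed genes at that level it was -0.34.

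Hspa8 had the smallest p of the listed genes. It was 1.84 times higher in tumor #1, a fitted difference of -0.88 ± 0.11 (SE) with an adjusted p of 0.0543 by limma. Across alternatives that adjusted p ran from 0.0197 to 0.146. Hsp90ab1 differed by -0.71 ± 0.15 and Hsp90aa1 by -0.47 ± 0.11, and in both the 2 libraries of tumor #2 lay below those of tumor #1. Hspa4, which exchanges the nucleotide on HSP70, was near level at -0.04 ± 0.12, so that the ratio of Hspa8 to Hspa4 was 19.2 and 16.3 in tumor #1 and 11.3 and 8.59 in tumor #2.

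Among the cochaperones, Fkbp4 was 2.03 times higher in tumor #1 (-1.02 ± 0.15 SE, adjusted p 0.0606 by limma). Fkbp5 (-0.74 ± 0.22), Cdc37 (-0.55 ± 0.14) and Stip1 (-0.54 ± 0.14) also had an unadjusted p under 0.05. With the TPM of Gm48789 added, which made up most of the sum, Fkbp5 stood at -0.28 and its unadjusted limma p was 0.0840. Ahsa1 was at -0.28 ± 0.14, and Ptges3 overlapped between the tumors at -0.07 ± 0.12. Thus 5 of the 6 listed cochaperones had both libraries of tumor #2 below those of tumor #1. That held for 23.7% of all tested genes and 40.0% of abundant protein-coding genes.

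Dnajb4 was the only listed J-domain gene that was higher in tumor #2 without overlap, with a mean 2.62 times higher there (1.26 ± 0.19 SE, adjusted p 0.0623 by limma). Hsph1 was higher in tumor #2 by 0.53 ± 0.24 and Hsf1 by 0.20 ± 0.19, both without overlap of libraries but with unadjusted p of 0.110 and 0.361 in the same fit. For Hsf1 the Tom- libraries, both at 23.1 TPM, were all but level. Dnaja1 (-0.47 ± 0.20), Dnaja2 (-0.31 ± 0.15) and Dnajb1 (-0.38 ± 0.19) were lower without overlap. Dnajb6 and Hsf2 overlapped between the tumors. Hspb1 was above 1 TPM in tumor #1 alone, so no fold is given.

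In the TRiC group, 6 of 7 genes (85.7%) were lower in tumor #2 without overlap, beside 23.7% of all tested and 40.0% of abundant protein-coding genes. Cct3 overlapped. Differences ran from -0.59 ± 0.17 (SE) for Cct4 to -0.05 ± 0.11 for Cct3, and Cct2 (-0.53 ± 0.12), Cct4 and Cct7 (-0.39 ± 0.11) had an unadjusted p under 0.05. Tcp1 was at -0.29, Cct5 at -0.36 and Cct8 at -0.26. In the mitochondrial group, Hspd1 differed by -0.47 ± 0.12 (SE) and its partner Hspe1 by -0.31 ± 0.12, while Hspa9 (-0.11 ± 0.13) and Trap1 (0.07 ± 0.13) were within 1 SE of 0.

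**Figure D4:**
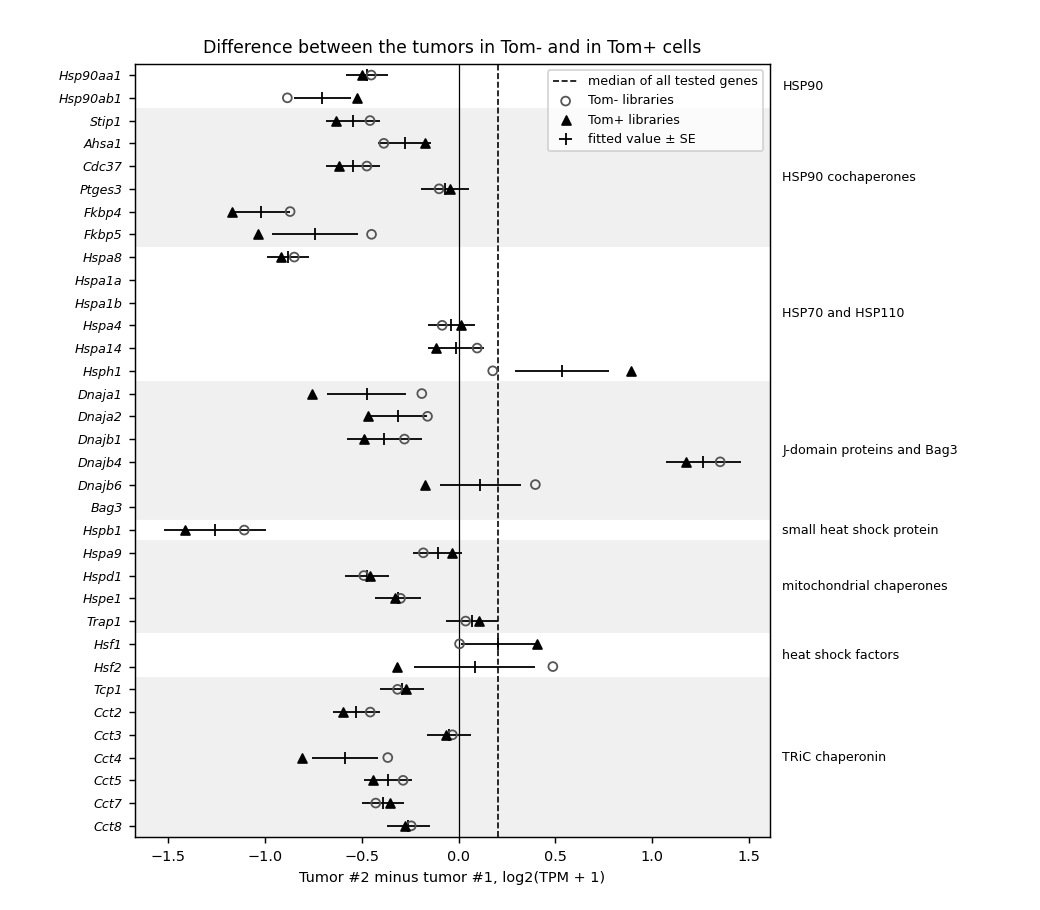
Tumor #2 minus tumor #1 on the log2(TPM + 1) scale for the 31 tested genes, with open circles for Tom- libraries, filled triangles for Tom+ libraries and black ticks with bars for the fitted value ± SE. The dashed line is the median of all tested genes (0.20), and 28 of the 31 fitted values lie to its left.

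By role, the summed level of the HSP70 and HSP110 group was 3775 and 3694 TPM in tumor #1 against 2222 and 2140 TPM in tumor #2. The HSP90 pair summed to 3877 and 3771 against 2482 and 2650 TPM, and TRiC to 3972 and 4075 against 3161 and 3201 TPM. These 3 groups held most of the chaperone transcripts in every library. Mitochondrial members summed to 755 and 773 against 606 and 641 TPM, and cochaperones to 617 and 604 against 447 and 423 TPM.

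**Figure D5:**
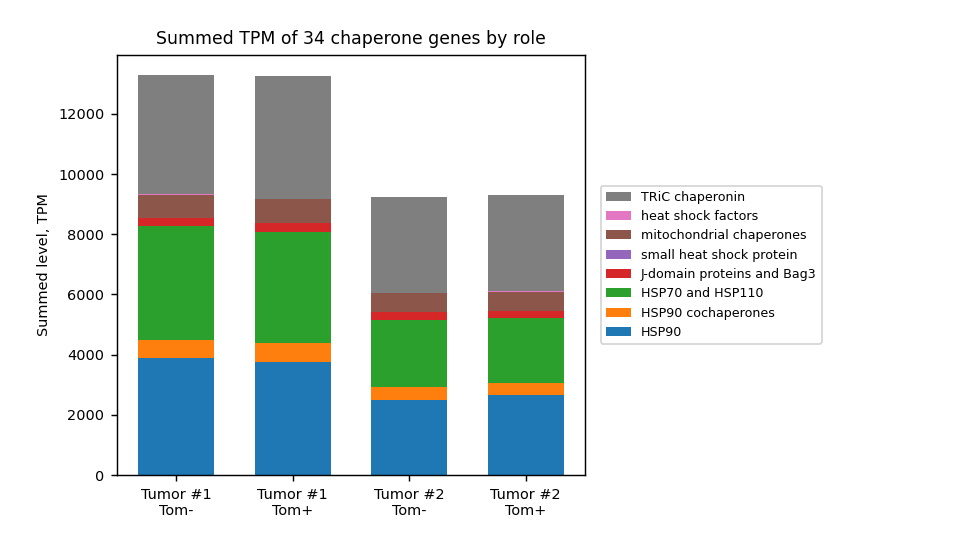
Summed TPM of the 34 genes in each library (bars, starting at 0), stacked by role. The bars of tumor #1 reach 13305 and 13253 TPM, those of tumor #2 only 9224 and 9316 TPM.

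The tumors also differed in what else their libraries held. Transcripts encoded by mitochondrial DNA took 6.61% and 8.67% of the TPM in tumor #1 and 14.4% and 15.6% in tumor #2, annotated pseudogenes 31.3% and 30.3% against 25.4% and 23.4%, and immunoglobulin genes 6.28% and 5.70% against 5.35% and 9.76%. With the mitochondrially encoded genes left out and the rest rescaled, the median of the listed genes was -0.20 and that of all genes 0.32. All 10 B cell markers were present and higher in tumor #2 without overlap, beside 44.8% of all tested genes. These markers summed to 2776 to 3122 TPM in tumor #1 and 5967 to 6705 TPM in tumor #2. Erythroid and platelet markers summed to 19.9 to 21.6 TPM in tumor #1 and 0.864 to 1.14 TPM in tumor #2. Most of the former was Hbb-bs, at 18.8, 16.1, 0 and 0.699 TPM, while 5 of the 10 markers, Hba-a1 among them, were at 0 in every library. T cell markers summed to 18.9 to 22.3 TPM in tumor #1 and 25.4 to 30.6 TPM in tumor #2. Of these 10 markers, 4 were tested. Cd3d (0.329, 0.0513, 7.77 and 2.09 TPM) and Thy1 (0.418, 0.648, 2.18 and 3.63 TPM) passed the filter only through tumor #2, so they could only lie higher there. Lck was higher in tumor #2 without overlap, with an unadjusted limma p under 0.05. Il7r was lower without overlap, while Cd3e was under 0.1 TPM in every library. NK cell markers stayed under 1 TPM, myeloid markers reached 8.92 TPM in the Tom- library of tumor #2 and under 1 TPM elsewhere, and stromal and endothelial markers summed to 15.1 to 15.2 and 44.4 to 50.4 TPM, mostly Pecam1. Plasma cell markers stood between 129 and 341 TPM, the highest in the Tom+ library of tumor #2, where Jchain was at 209 TPM. The part of these other cells and transcripts in the chaperone values was not tested.

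A wider list of chaperone genes, 108 in all, of which 107 were in the table and 86 tested, was read in the same way. Between Tom+ and Tom- cells, 0 passed the adjusted threshold, 1 had an unadjusted p under 0.05, and 21 were higher (24.4%) and 22 lower (25.6%) in both tumors, beside 21.6% and 29.5% of all tested genes. That gene was Hspa12b, a distant HSP70 relative, at 0.0398, 1.87, 1.23 and 3.64 TPM (1.26 ± 0.26 SE). The next in order of p were Nudc, an HSP90 cochaperone (1052, 1310, 813 and 960 TPM, 0.28 ± 0.11), Cdc37l1, Dnajc12 (0.61 ± 0.26), the HSP70 cochaperone St13 (-0.26 ± 0.13) and Dnajc17 (-0.95 ± 0.50), each with an adjusted p of 0.936 by limma.

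Between the tumors, 0 of the 86 passed the adjusted threshold. At an unadjusted p under 0.05, 9 were higher (10.5%) and 13 lower (15.1%) in tumor #2, beside 25.7% and 11.0% of all tested genes. Without overlap, 24 were higher (27.9%) and 32 lower (37.2%), beside 44.8% and 23.7% of all tested genes, and the median was -0.05. Among the 24, Dnajb14 passed the filter only through tumor #2, so it could only lie higher there. The smallest p belonged to Clpb, a mitochondrial disaggregase, at 23.3, 23.0, 9.73 and 7.37 TPM (-1.35 ± 0.19 SE, adjusted p 0.0596 by limma). Ppid (cyclophilin 40), an HSP90 immunophilin, lay in the other direction at 115, 116, 214 and 281 TPM (1.08 ± 0.16), as did Cdc37l1 at 21.8, 29.0, 44.3 and 55.1 TPM (0.95 ± 0.15). Aarsd1 (-0.88 ± 0.17), St13 (-0.66 ± 0.13) and Dnajc8 (-0.63 ± 0.12) were lower in tumor #2. Prefoldin hands actin and tubulin chains to TRiC, and of the 9 tested prefoldin and TRiC cofactor genes 8 were lower in tumor #2 without overlap, with a median of -0.37. Among all tested genes 23.7%, and among abundant protein-coding genes 40.0%, were lower in that way. Other groups of the wider list differed. Without overlap, other HSP70 and HSP110 genes (6 tested) had 3 higher and 0 lower, with a median of 0.60. Other J-domain genes (28 tested) had 10 and 8, median -0.025. Other HSP90 cochaperones and adaptors (22 tested) had 6 and 7, median -0.0056. Exchange factors and HSP70 partners (12 tested) had 1 and 4, median -0.080, and mitochondrial proteases and disaggregase (4 tested) 1 and 3, median -0.51.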

How the data were processed

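Bulk RNA-seq of 4 sorted spleen cell fractions from 2 λ-MYC Tom+/ki mice was analysed. The authors sequenced single reads (CASAVA 1.8), trimmed them with Cutadapt and estimated transcript levels with Salmon 1.9 (GRCm38 transcripts), and deposited TPM values per gene, each library summing to 1000000. How transcripts were summed to genes is not given in the sources used here. TPM keeps no depth, so counting error is unknown and the count test of the study, edgeR on paired samples, could not be repeated. Of 34866 genes, 34652 matched the GENCODE annotation.

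From the deposited TPM, log2(TPM + 1) was fitted with limma 3.58.1 (R 4.3.3; variance trend) for the 11339 genes with at least 1 TPM in at least 2 libraries, with Tom status and tumor as terms and Benjamini-Hochberg adjustment over all of them (threshold 0.05). The fractions of a tumor came from the same mouse, which pairs them. The fit had 1 residual degree of freedom and a prior of 2.21. A permutation of labels could reach p = 0.5 at best in the paired comparison and 0.333 in the other, so none is reported. The list of members was taken as given, but it was drawn up with earlier results of these data known. The roles, the marker lists and the wider chaperone list were also chosen with such results known. Every member is named. Values in all libraries are given for members with p under 0.05, for the highest and the most different member of each role and for those below the filter, and the wider list is named by its 6 smallest p in each comparison. Alternatives covered the block, pseudocount, filter, scaling, variance model, pseudogene levels and each tumor alone.
The gene whose locus drives Cre is not reported here.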

Additional observations from a re-analysis of the deposited data

Results flagged for a closer look

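In 3 genes the Tom+ library was higher than the Tom- library in 1 tumor and lower in the other by more than 0.1 on the log2(TPM + 1) scale, and these differences between tumors were not tested, since each tumor gives 1 pair. For Hsp90ab1 the difference was -0.23 in tumor #1 and 0.13 in tumor #2, so that the value in tumor #2 less that in tumor #1 was 0.359. For the J-domain gene Dnaja1 it was 0.18 and -0.39, a value of -0.569, and for Dnajb6 0.35 and -0.22, a value of -0.568. In 9 further genes the signs were opposite with at least 1 of the differences under 0.1 in size.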

How the results depend on the processing

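No listed gene passed the adjusted threshold for Tom+ against Tom- cells in the 15 settings fitted. Tumor as a block stood for the pairing of fractions: without it, 0 genes were called for Tom+ against Tom- (140 at an unadjusted p under 0.05) and the median of the listed genes was again 0.038. From tumor #2 alone (without replicate 1) to tumor #1 alone (without replicate 2) that median ran from 0 to 0.061. Each tumor alone gave opposite signs in 12 listed genes. In fits of both tumors, signs of this comparison that turned were Fkbp5 at 0.55 and Dnajb6 at -0.045 with similar pseudogenes added, Tcp1 at 0.046 under quantile normalization, and, in the order quantile normalization, trimmed-mean scaling, immunoglobulin genes left out and mitochondrially encoded genes left out, Hspa9 at 0.025, 0.005435, 0.00669 and 0.00261, Cct2 at 0.060, 0.024, 0.025 and 0.021, and Cct5 at 0.00780, 0.012, 0.013 and 0.00909. The cause was not tested.

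Between the tumors, genes called (491) numbered 2231 without the block (tumor as the only term), 1 with a pseudocount of 0.1, 1 with no filter on low TPM, 34 with a mean of at least 5 TPM, 1 under quantile normalization, 275 without a variance trend, 940 with immunoglobulin genes left out, 740 with mitochondrially encoded genes left out and 1295 with pseudogenes left out. Listed genes called (0) numbered 7 without the block (6 leaving out Hspb1), 1 with a robust prior (Hspa8), 2 under trimmed-mean scaling, 2 without immunoglobulin genes (Hspa8 and Fkbp4 in both) and 4 without pseudogenes (with Dnajb4 and with Hspb1, which passed the filter only through tumor #1). The median of the listed genes (-0.31) was -0.55 under trimmed-mean scaling, which moved the median of all genes to -0.00993, -0.20 without mitochondrially encoded genes and -0.44 without pseudogenes, and stayed below that of all genes in every setting. In fits of both fractions, signs turned for Ptges3 (0.048), Hspa4 (0.083), Hspa14 (0.11), Hspa9 (0.010) and Cct3 (0.071) without mitochondrially encoded genes, Hspa14 (0.012) without immunoglobulin genes, and Cct3 (0.086) under quantile normalization. They also turned, under quantile normalization, trimmed-mean scaling and without pseudogenes in that order, for Dnajb6 (-0.015, -0.12 and -0.013), Trap1 (-0.061, -0.17 and -0.0564) and Hsf2 (-0.36, -0.097 and -0.016), and under quantile normalization and trimmed-mean scaling for Hsf1 (-0.032 and -0.025). The cause was not tested.

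With 2 mice and 1 residual degree of freedom, a miss of the threshold does not show that levels were alike. TPM holds no depth, so values of Hspa1a, Hspa1b, Bag3 and Hspb1 near 0 carry an unknown counting error.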
